A study of Mus musculus with 2 samples.

Results

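Arterial endothelial cells of the mouse heart were described from 775 cell barcodes, of 6235 endothelial barcodes, 9092 barcodes kept after filtering and 10427 barcodes in all. A barcode was kept with at least 500 detected genes and at most 10% mitochondrial UMIs (molecules counted individually). It was called endothelial when its UMIs of Pecam1, Cdh5, Egfl7 and Cldn5 summed to at least 4 and to more than those of the fibroblast genes Pdgfra, Dcn, Col1a1 and Col3a1. It was called arterial when it also had a UMI of at least 3 of the 5 genes Gja5, Gja4, Sema3g, Stmn2 and Fbln5, and fewer than 3 UMIs of Myh11, the smooth muscle myosin heavy chain. The library of db/db mice given 1% salt held 348 such barcodes of 2833 endothelial ones, and the db/+ library held 427 of 3402. The remaining 2485 and 2975 endothelial barcodes are called other endothelial here.

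db/db mice carry the leptin receptor mutation db on both copies of Lepr, and they received salt; the series title calls them a model of HFpEF, heart failure in which the ejection fraction is preserved. db/+ mice carry a single mutated copy, and their label names no treatment, so genotype and salt cannot be told apart. The hearts came from male mice, 4 per genotype, whether and how they were pooled is not stated, and no age is given. Cells of both groups came from hearts depleted of cardiomyocytes and of CD45+ leukocytes, and each group was measured as 1 library by 10x Genomics 3' single-cell RNA sequencing, with no map from cells to animals. There were therefore no replicates, no test between the groups was possible, and all printed intervals are exact 95% intervals that cover counting error only.

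The endothelium of arteries differs from that of capillaries and veins in its gene programme. Notch receptors on arterial endothelial cells are activated by the ligands Dll4, Jag1 and Jag2 of neighbouring cells, and the transcription factors Hey1 and Hey2 are among the targets. Gja4 and Gja5 encode connexins of the gap junctions between arterial endothelial cells, Sema3g a secreted semaphorin of arterial endothelium, Stmn2 a tubulin-binding protein best known from neurons, and Fbln5 an elastic fibre protein.

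The 2 libraries held 40974634 UMIs in db/db and salt and 44935235 UMIs in db/+, and 7 barcode sequences occurred in both libraries, 2 of them arterial in at least 1 library. Arterial barcodes contributed 3391874 and 3906876 UMIs, with a median of 7148.5 and 7048 UMIs per barcode. Other endothelial barcodes had medians of 5582 and 5649 UMIs, so arterial barcodes were the deeper ones. The arterial gate asks for UMIs of several genes, and its part in this difference was not tested. Scrublet, a doublet caller, marked 50 and 64 kept barcodes, of which 1 per library was arterial, and these were left in. Lepr itself had 0.884 and 3.84 CPM (counts per 1000000 UMIs of the class) in arterial barcodes, from 3 and 15 UMIs, and 3' counts of this kind do not read the db mutation.

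Arterial barcodes made up 12.3% (11.1 to 13.5) of the endothelial barcodes in db/db and salt and 12.6% (11.5 to 13.7) in db/+, and the exact binomial intervals overlapped. With each barcode thinned to 2000 UMIs before the gate was applied, and shallower barcodes left out, 183 of 2573 endothelial barcodes in db/db and salt (7.11%, 6.15 to 8.17) and 223 of 2904 in db/+ (7.68%, 6.74 to 8.71) were arterial. The share thus depended on depth and on the gate. With at least 4 markers asked for it was 7.77% and 7.91%, and with at least 2 it was 22.1% in db/db and salt and 19.5% in db/+. Barcodes just inside the limit of 3 markers numbered 128 and 158, and barcodes with 2 markers, just outside it, numbered 279 and 235. All 5 markers were present in 101 of 348 and 121 of 427 arterial barcodes.

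The gate genes themselves chose the barcodes, and their levels are a description. Stmn2 had a UMI in 94.8% and 95.8% of arterial barcodes in db/db and salt and db/+, against 37.3% and 28.5% of other endothelial barcodes. Gja5 had one in 43.7% and 43.1%, against 2.74% and 2.72%, so most arterial barcodes passed without it. Shares for Gja4 were 75.6% and 85.2%, for Sema3g 92.5% and 86.4%, and for Fbln5 85.6% and 80.8%. Fibroblast barcodes, with medians of 11981.5 and 9633 UMIs, were set beside them, and the part of free RNA in their shares was not tested. Of these, 0.976% and 0.641% had a Gja5 UMI and 2.76% and 2.56% a Sema3g UMI. A Stmn2 UMI was found in 4.07% and 4.13% of them and a Gja4 UMI in 10.2% and 8.26%. The Gja4 share of other endothelial barcodes, 8.85% in db/db and salt and 9.65% in db/+, stood beside these deeper fibroblast barcodes. In barcodes thinned to 2000 UMIs each, it was 3.66% in db/db and salt and 5.24% in db/+. Of fibroblast barcodes thinned alike, 3.05% and 2.49% had a Gja4 UMI, close to the first share and below the second. Fbln5 is a fibroblast gene too, with a UMI in 83.9% and 76.9% of fibroblast barcodes, and it separates arterial barcodes only within the endothelium.

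Each marker was also read in barcodes chosen by at least 3 of the other 4, so that it had no part in its own gate. Under these gates Gja5 had a UMI in 41.8% (36.5 to 47.3) of 337 db/db and salt barcodes and 40.3% (35.5 to 45.2) of 407 db/+ barcodes, against 3.17% and 3.37% of the endothelial barcodes outside the gate. Its level was 146 and 116 CPM, against 10.9 and 12.8 CPM outside. Gja4 was present in 70.0% and 79.9%, Sema3g in 89.3% and 81.8%, Stmn2 in 92.2% and 93.6% and Fbln5 in 81% and 76% of barcodes chosen without them. Outside those gates the shares ran from 3.17% (Gja5) to 40.2% (Stmn2) in db/db and salt and from 3.37% (Gja5) to 31.8% (Stmn2) in db/+, each below the share of the same gene inside. Arterial barcodes were also deeper than other endothelial ones, and the part of depth in these shares was not tested. Levels of the markers and of genes outside the gate are plotted by class and library.

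**Figure D1:**
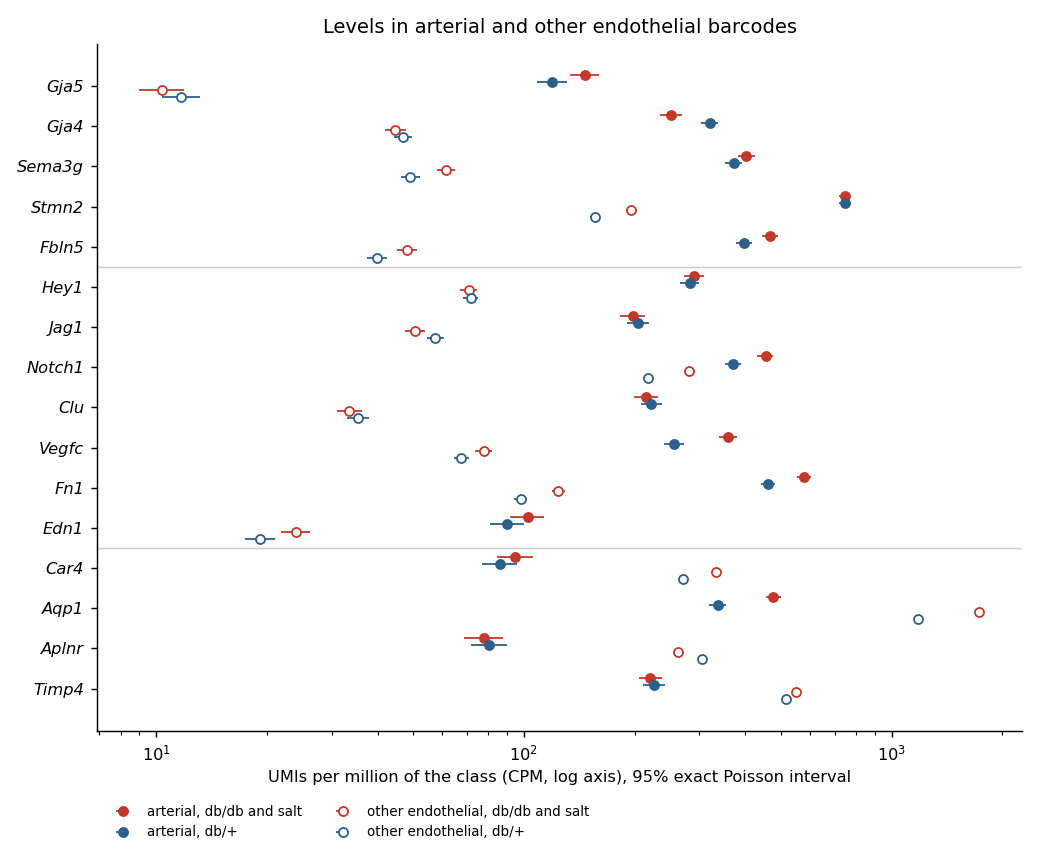
CPM (log axis) of the 5 gate markers (top), of artery and Notch genes outside the gate (middle) and of capillary genes (bottom); filled points are arterial and open points other endothelial barcodes, red is db/db and salt, blue is db/+, and bars are exact 95% Poisson intervals. Clu had 215 and 222 CPM in arterial barcodes, against 33.5 and 35.4 CPM in other endothelial barcodes, and for Aqp1 and Car4 the filled points lie below the open ones.

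Beyond the gate, arterial barcodes had higher levels of arterial and Notch genes and lower levels of capillary genes. Of 8450 genes with a mean of at least 10 CPM, 232 (2.75%) were at least 1.5-fold higher in arterial than in other endothelial barcodes in both libraries and 144 (1.7%) were at least 1.5-fold lower. Ratios are log2((CPM + 10)/(CPM + 10)) and understate those of low genes, and the median over all genes was 0.02 in db/db and salt and 0.04 in db/+. The plot of the ratio in db/db and salt against the ratio in db/+ shows both libraries side by side. The genes of a gated class are correlated with the gate genes of the same barcodes, so these values describe the class and test nothing.

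**Figure D2:**
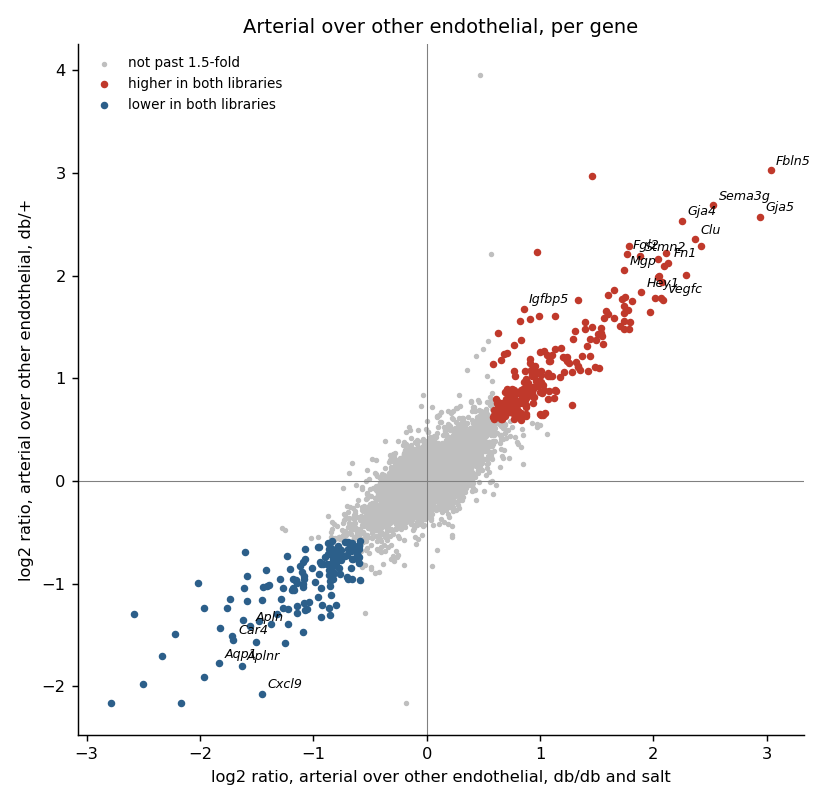
Each point is a gene: the log2 ratio of arterial over other endothelial barcodes in db/db and salt (x axis) and in db/+ (y axis), for 8450 genes; red points were at least 1.5-fold higher in both libraries, blue points at least 1.5-fold lower, grey points neither. Clu (ratios 2.37 and 2.35) lies at the upper right, Aqp1 (ratios -1.83 and -1.78) at the lower left, and Igfbp5 (ratios 0.86 and 1.68) off the diagonal.

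Of the Notch pathway and arterial transcription factors, 8 of 22 measured genes were past the fold upward in both libraries and 2 downward, with a median of 0.49 in db/db and salt and 0.40 in db/+. Hey1, a transcription factor induced by Notch, had 289.8 CPM (272 to 309) in db/db and salt and 283 CPM (266 to 299.8) in db/+, against 70.9 CPM (67.2 to 74.7) and 71.7 CPM (68.4 to 75.2) in the other endothelial barcodes of the same libraries. It lies at chr3:8663359-8667256, - strand (GRCm38), and its log2 ratios over other endothelial barcodes were 1.89 and 1.84 in db/db and salt and db/+, the libraries that all pairs of ratios refer to; the arterial and other intervals did not overlap in either library. A Hey1 UMI was found in 78.4% and 77.3% of arterial, 24.1% and 25% of other endothelial and 12.4% and 8.83% of fibroblast barcodes, and with each barcode thinned to 2000 UMIs, over 341 and 401 arterial, 2323 and 2693 other endothelial and 1213 and 1365 fibroblast barcodes of at least that depth, the shares were 46% and 44.4%, 11.3% and 11.4%, and 2.97% and 1.98%.

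Among the ligands, Jag1 had 198 CPM (183 to 213) in db/db and salt and 205 CPM (191 to 219) in db/+, against 50.6 CPM (47.5 to 53.9) and 57.4 CPM (54.5 to 60.5) in the other endothelial barcodes of the same libraries, with ratios of 1.78 and 1.67. Jag2 had 207 and 196 CPM in db/db and salt and db/+ arterial barcodes, against 117 and 102 CPM in other endothelial barcodes (ratios 0.77 and 0.88). Dll4, the ligand of arterial and tip cells, had 187 and 139 CPM in db/db and salt and db/+ arterial barcodes, against 108 and 89.7 CPM in other endothelial barcodes, and its ratios of 0.74 and 0.58 passed the fold in db/db and salt only. The receptor Notch1 had 454 and 370.4 CPM in db/db and salt and db/+ arterial barcodes, against 281 and 217 CPM in other endothelial barcodes (ratios 0.67 and 0.74).

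Efnb2, the ephrin ligand of arterial endothelium, had 473 and 363 CPM in db/db and salt and db/+ arterial barcodes, against 244 and 171 CPM in other endothelial barcodes, with ratios of 0.93 and 1.04. Sox17, a SoxF factor upstream of Notch in arteries, had 371 and 369 CPM in db/db and salt and db/+ arterial barcodes, against 155 and 154 CPM in other endothelial barcodes (ratios 1.20 and 1.21), while its relative Sox7 was lower, with ratios of -0.66 and -0.62. Mecom, a zinc finger factor of arterial endothelium, had 473 and 362 CPM in db/db and salt and db/+ arterial barcodes, against 174 and 124 CPM in other endothelial barcodes (ratios 1.39 and 1.48). The netrin receptor Unc5b was higher too, with ratios of 1.10 and 1.02. Hes1, another Notch target, was lower: it had 141 and 133 CPM in db/db and salt and db/+ arterial barcodes, against 219 and 211 CPM in other endothelial barcodes (ratios -0.60 and -0.63). Nrp1, a co-receptor for VEGF often used as an arterial marker, had 849 and 837 CPM in db/db and salt and db/+ arterial barcodes, against 1015 and 988 CPM in other endothelial barcodes and did not pass the fold.

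Of the genes listed for artery endothelium, 17 of 19 were higher past the fold in both libraries and none lower, with medians of 1.35 and 1.22. Clu, which encodes the secreted chaperone clusterin (chr14:65968483-65981547, + strand), was the gene outside the gate whose smaller ratio was highest, with 215 CPM (199.6 to 231) in db/db and salt and 222 CPM (208 to 237) in db/+, against 33.5 CPM (31 to 36.2) and 35.4 CPM (33.1 to 37.9) in the other endothelial barcodes of the same libraries. Its UMIs lay in 37.6% and 44.7% of arterial barcodes, so many had none at this depth. Fn1, fibronectin, had 576 and 461 CPM in db/db and salt and db/+ arterial barcodes, against 124 and 98 CPM in other endothelial barcodes (ratios 2.13 and 2.12). Vegfc, a growth factor of lymphatic endothelium, had 358 and 256 CPM in db/db and salt and db/+ arterial barcodes, against 77.6 and 67.6 CPM in other endothelial barcodes (ratios 2.07 and 1.78). Rbp7, a retinoid-binding protein of endothelium, had 1517 and 1414 CPM in db/db and salt and db/+ arterial barcodes, against 447 and 474 CPM in other endothelial barcodes (ratios 1.74 and 1.56). Edn1, which encodes the vasoconstrictor endothelin-1, had 102 and 90.1 CPM in db/db and salt and db/+ arterial barcodes, against 24 and 19.2 CPM in other endothelial barcodes (ratios 1.72 and 1.78).

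Chosen by the smaller of the ratios in the libraries, with at least 50 CPM in the higher group and with genes of other cell types left out, the remaining leading genes were Nebl, Amd1, Cytl1, Pcsk5, Eps8l2, Tgfb2, Slc45a4, Rgs10, Alpl, Col18a1, Fgl2 and Col8a1, with ratios in db/db and salt from 1.77 (Fgl2) to 2.42 (Nebl). Nebl, which encodes the actin-binding protein nebulette, had 117 and 116 CPM in db/db and salt and db/+ arterial barcodes, against 13.8 and 15.8 CPM in other endothelial barcodes. Tgfb2, a TGF-beta ligand, had 142 and 97 CPM in db/db and salt and db/+ arterial barcodes, against 26.6 and 16.8 CPM in other endothelial barcodes, and Col18a1, a basement membrane collagen, had 209.9 and 177 CPM in db/db and salt and db/+ arterial barcodes, against 44.3 and 44.5 CPM in other endothelial barcodes. Not all of them were spread over the class. Cytl1 had a UMI in 2.87% and 5.62% of arterial barcodes, and the 5 barcodes with most of it held 78.9% and 69.4% of its UMIs.

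Fgl2 and a few other genes moved with barcodes that carried lymphatic markers. It had a UMI in 2.01% and 3.75% of arterial barcodes, and without 7 and 12 members that carried UMIs of at least 3 of the 6 lymphatic genes Prox1, Lyve1, Flt4, Mmrn1, Reln and Pdpn it had 0.62 and 1.1 CPM, against 111 and 123 CPM with them. Summed over the lymphatic list, arterial barcodes had 339 and 468 CPM, against 156 and 88.4 CPM in other endothelial barcodes, with no listed gene at 0. Igfbp5, an IGF-binding protein, moved with them as well: its ratios were 0.86 and 1.68 with all barcodes, and -0.26 and -1.70 without these members and without the 27 and 17 other endothelial barcodes that met the same condition. Hey1 had ratios of 1.93 and 1.93 with both sets left out, and of the 232 higher genes 203 remained. This alternative was added with the data known.

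Elastic fibre and artery wall genes were higher for 4 of 12 measured, with medians of 0.43 and 0.37. Eln, elastin, had 219.9 and 144 CPM in db/db and salt and db/+ arterial barcodes, against 68.6 and 47.9 CPM in other endothelial barcodes (ratios 1.55 and 1.41). Mgp, matrix Gla protein, an inhibitor of calcification, had 1142 and 1251 CPM in db/db and salt and db/+ arterial barcodes, against 334 and 293 CPM in other endothelial barcodes (ratios 1.74 and 2.06), with 52.9% and 36.3% of its arterial UMIs in 5 barcodes. Fbln2, a fibulin, and Htra1, a secreted protease, had ratios of 0.99 and 1.61 and of 1.97 and 1.64. Fibroblasts express these genes too: fibroblast barcodes had 7844 and 8676 CPM of Mgp and 628 and 388 CPM of Eln. The 10 fibroblast markers summed to 230.3 and 149 CPM in arterial barcodes, against 198 and 132 CPM in other endothelial barcodes, with none at 0; the part of free RNA in the levels was not tested.

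Of TGF-beta and BMP genes, 10 of 21 were higher and 1 lower, with medians of 0.47 and 0.60. Smad6, an inhibitory SMAD, had 168 and 139 CPM in db/db and salt and db/+ arterial barcodes, against 48.6 and 38.1 CPM in other endothelial barcodes (ratios 1.60 and 1.63), and Smad7, the other inhibitory SMAD, had ratios of 0.75 and 0.76. The receptors Acvrl1 and Tgfbr2 had ratios of 0.73 and 0.81 and of 0.66 and 0.70. Without the lymphatic-marker barcodes of both classes, Acvrl1 had 0.76 and 0.87. Tgfbr2 then had 0.55 and 0.46 and did not pass the fold. The 1 lower gene was the ligand Bmp6, with 34.5 and 29.4 CPM in db/db and salt and db/+ arterial barcodes. Other endothelial barcodes had 123 and 64.9 CPM (ratios -1.58 and -0.92). Of genes of vascular tone, 3 of 17 were higher, which were Edn1, the angiotensin-converting enzyme Ace (ratios 1.79 and 1.48) and the calcium channel Trpv4 (1.21 and 1.06). Another 5 were lower, among them the endothelin receptor Ednrb (-0.96 and -0.64), the vasodilator peptide gene Adm (-1.09 and -1.01) and its receptor Calcrl (-0.67 and -0.85). Adm had a UMI in 6.9% and 6.32% of arterial barcodes, and 5 barcodes held 55.4% and 68.75% of its arterial UMIs. Nos3, endothelial nitric oxide synthase, had 172 and 153 CPM in db/db and salt and db/+ arterial barcodes, against 146 and 137 CPM in other endothelial barcodes and did not pass the fold, nor did any of 12 shear-responsive genes, Klf2 (0.19 and 0.26) and Klf4 (0.18 and 0.32) included.

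Capillary genes were lower for 8 of 16 measured and higher for 1, with medians of -0.57 and -0.56. Aqp1, the water channel aquaporin-1 (chr6:55336432-55348555, + strand), had 477 CPM (454 to 501) in db/db and salt and 336 CPM (318 to 355) in db/+, against 1724 CPM (1705 to 1742) and 1176 CPM (1162 to 1189.9) in the other endothelial barcodes of the same libraries, with ratios of -1.83 and -1.78. Car4, a membrane-bound carbonic anhydrase, had 94.6 and 86 CPM in db/db and salt and db/+ arterial barcodes, against 333 and 271 CPM in other endothelial barcodes (ratios -1.71 and -1.55), and Aplnr, the apelin receptor, had 77.8 and 80.4 CPM in db/db and salt and db/+ arterial barcodes, against 262 and 304 CPM in other endothelial barcodes (-1.63 and -1.80). Lpl, lipoprotein lipase, and Fabp5, a fatty acid-binding protein, had ratios of -1.15 and -0.97 and of -1.04 and -1.18. Gpihbp1, which carries lipoprotein lipase across capillary endothelium, was at 1219.7 and 1083 CPM in arterial barcodes and had ratios of -0.61 and -0.71. Btnl9, a butyrophilin-like gene, was the exception, with 794 and 751 CPM in db/db and salt and db/+ arterial barcodes, against 430.4 and 412 CPM in other endothelial barcodes.

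The other leading low genes included Cxcl9, Trp53i11, Apln, Hist1h1b, Timp4 and Car8. Apln, the ligand of Aplnr and a tip cell gene, had 13.9 and 27.1 CPM in db/db and salt and db/+ arterial barcodes, against 60.4 and 88.9 CPM in other endothelial barcodes, and Cxcl9, a chemokine induced by interferon-gamma, had 15 and 60.9 CPM in db/db and salt and db/+ arterial barcodes, against 58.7 and 289 CPM in other endothelial barcodes. For Apln, 5 barcodes held 70.2% of the arterial UMIs in db/db and salt and 56.6% in db/+. Of the cell cycle list, 8 of 11 genes were lower, with medians of -1.5 and -1.15. Hist1h1b, a linker histone gene, had 0.295 CPM (0.00746 to 1.64) in db/db and salt and 25.9 CPM (21.1 to 31.4) in db/+ arterial barcodes, where db/db and salt rested on 1 UMI, against 51.6 and 77.8 CPM in other endothelial barcodes; 5 barcodes held 94.1% of the db/+ UMIs.

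Members varied among themselves with the number of markers. With 2, 3, 4 and 5 markers, Hey1 had 122, 188, 328 and 364 CPM in db/db and salt and 143, 208, 324 and 337 CPM in db/+, and endothelial barcodes with no marker had 37.1 and 40.8 CPM. Clu had 22.5, 60.1, 188 and 401 CPM in db/db and salt and 36.5, 56.6, 184 and 476 CPM in db/+. Car4 ran the other way, with 285, 173, 53.4 and 47.1 CPM in db/db and salt and 198, 126, 85.7 and 33.9 CPM in db/+. For these 3 genes barcodes with 3 markers lay between those with 2 and those with 4. Mgp did not follow this order: it had 438, 255, 807 and 2363 CPM in db/db and salt and 404, 375, 983 and 2664 CPM in db/+. The lymphatic gene Prox1 had 39.2, 56.9, 2.01 and 1.71 CPM in db/db and salt and 50.6, 97.6, 0 and 0 CPM in db/+. The part of lymphatic-marker barcodes in the gradient was not tested. Depth did not follow the order of marker numbers: with 2, 3, 4 and 5 markers the medians were 7320, 6386, 6818 and 10470 UMIs in db/db and salt and 6798, 6064, 6496 and 8486 UMIs in db/+, highest at 5, and the part of depth in the gradient was not tested.

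**Figure D3:**
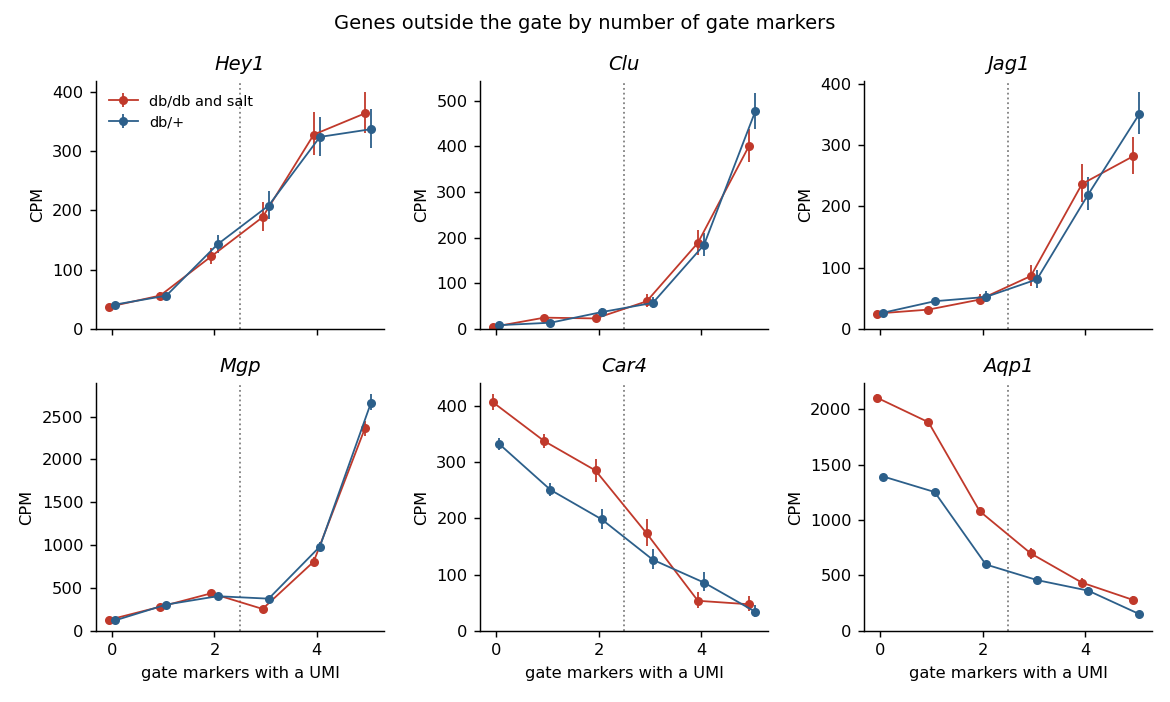
CPM of 6 genes outside the gate (y axis) in endothelial barcodes grouped by how many of the 5 gate markers had a UMI (x axis), in db/db and salt (red) and db/+ (blue), with exact 95% Poisson intervals; barcodes with 3 or more UMIs of Myh11 are left out, and the dotted line is the gate. Hey1, Clu, Jag1 and Mgp were highest at 5 markers, where Mgp reached 2363 and 2664 CPM, and Car4 and Aqp1 were highest at 0.

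The connexin Gja5, present in 152 of 348 and 184 of 427 members, was used to split the class; it was added with the data known, because 18 members per library lacked Stmn2, the split first planned. In db/db and salt and db/+, members with a Gja5 UMI had 2098 and 2133 CPM of Mgp, against 346 and 568 CPM in members without. Eln stood at 378 and 249 CPM, against 88.6 and 62.2, and Clu at 344 and 379 CPM, against 107 and 100.4. Cytl1 had 269 and 168 CPM against 5.95 and 6.81. Hey1 differed less, with 357 and 314 CPM against 234 and 258, and with the split made in barcodes thinned to 2000 UMIs it had 423 and 335 CPM with Gja5, against 323 and 337 without, so that the db/+ values were close together. Car4 was lower in members with Gja5, at 48 and 61.6 CPM against 133 and 105. With that split in thinned barcodes it was at 12.8 and 47.1 CPM, against 53.2 and 53.8. The lymphatic gene Mmrn1 was at 1.95 and 0 CPM with Gja5, against 206 and 347 without. Median depths were 8332 and 7678.5 UMIs with Gja5, against 6806.5 and 6459 UMIs without.

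Markers of other cell types were present in the members. The 11 smooth muscle genes summed to 305 and 327 CPM, against 818 and 659 CPM in other endothelial barcodes, with 1 gene at 0 in arterial barcodes of each library. The gate sets this direction, since it bars barcodes of 3 or more Myh11 UMIs from the arterial class and leaves them among the other endothelial ones. It placed 86 and 107 endothelial barcodes with at least 3 arterial markers there, and these were deep, with medians of 15830.5 and 15098 UMIs. Without any other endothelial barcode of 3 or more Myh11 UMIs there were 318 higher genes, 230 of them shared with the 232, an alternative added with the data known. The smooth muscle median was then 0.95 in db/db and salt and 0.72 in db/+, against -0.77 and -0.55 with those barcodes, and the ratio of Myh11 was 0.74 and 0.91, against -2.78 and -2.17, so that the direction turned in both libraries. Of the 13 leukocyte markers, 10 were at 0 in the arterial barcodes of each library, and the sum was 1.47 and 0.768 CPM. The 9 pericyte genes summed to 1409.5 and 1763 CPM, against 1387 and 1447 CPM, with none at 0. By their summed UMIs of Myh11, Kcnj8, Abcc9, Vtn, Pdgfrb and Notch3, 10 and 11 members also counted as mural barcodes. In these the sum was at least 4 and above both the endothelial and the fibroblast gate sums. Of other endothelial barcodes, 49 and 73 met the same condition.

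Between the libraries, db/db and salt arterial barcodes had lower levels of antigen presentation and interferon-induced genes, lower clock output genes and higher Cyp26b1, while 2 genes of the lists for Notch and artery endothelium passed the fold. Of 8454 genes measured in arterial barcodes, 58 (0.686%) were at least 1.5-fold higher in db/db and salt and 125 (1.48%) at least 1.5-fold lower, and the median ratio over all genes was 0.03. Of the Notch and arterial factor list 1 of 23 genes passed the fold, the chemokine receptor Cxcr4, with 94.9 CPM in db/db and salt and 59.9 CPM in db/+ (ratio 0.59, or -0.05 with barcodes thinned before the gate); the median was 0.16. Of the artery endothelium list 1 of 19 passed, Igfbp3, and the gate markers had ratios with a median of 0.11. Hey1 (ratio 0.04), Clu (-0.05) and Jag1 (-0.05) had overlapping intervals in db/db and salt and db/+. Vegfc was an intermediate case, with 358 CPM (338 to 379) in db/db and salt arterial barcodes, against 256 CPM (241 to 273) in db/+: the intervals did not overlap, and its ratio of 0.47 did not pass the fold.

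MHC class I molecules show peptides made by the proteasome and pumped by Tap1 to T cells, and interferons induce the genes of the whole pathway. Of 15 measured class I genes, 13 were lower past the fold and none higher, with a median of -1.13. H2-K1, a class I heavy chain, had 744 CPM (715 to 774) in db/db and salt arterial barcodes, against 1948 CPM (1905 to 1993) in db/+, a log2 ratio of -1.38. B2m, the light chain shared by class I molecules (chr2:122147686-122153083, + strand), had 1096 CPM (1061 to 1131) in db/db and salt arterial barcodes, against 2701 CPM (2649.6 to 2753) in db/+ (ratio -1.29). Neither gene's intervals overlapped between the libraries, and both were detected in most barcodes: H2-K1 in 93.7% of arterial barcodes in db/db and salt and 98.8% in db/+, or 72.7% and 93% after thinning. H2-D1, another heavy chain, had 1995 CPM in db/db and salt against 3768 CPM in db/+, the immunoproteasome genes Psmb8 and Psmb9 239 CPM in db/db and salt against 534 CPM in db/+ and 132 CPM in db/db and salt against 313 CPM in db/+, and Tap1 29.2 CPM in db/db and salt against 112 CPM in db/+. H2-Q7 and H2-Q6 had ratios of -2.45 and -1.95; they are near-identical relatives, so how their reads were split is uncertain.

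Class II genes, which endothelium expresses under interferon-gamma, were lower for 4 of 4 measured, with a median of -2.09. Cd74, the invariant chain, had 10.3 CPM (7.19 to 14.4) in db/db and salt arterial barcodes, against 222 CPM (208 to 238) in db/+ (ratio -3.52). Its UMIs were found in 2.87% and 19.4% of arterial barcodes, 0.684% and 10.8% of other endothelial barcodes and 0.244% and 2.64% of fibroblast barcodes in db/db and salt and db/+, and after thinning in 1.17% and 13% of arterial barcodes. H2-Ab1 and H2-Aa, the class II chains, had 10.0 CPM in db/db and salt against 88 CPM in db/+ and 10.3 CPM in db/db and salt against 65.5 CPM in db/+. Class II genes are also expressed by leukocytes, of which the hearts were depleted. The leukocyte marker sums in arterial barcodes were 1.47 CPM in db/db and salt and 0.768 CPM in db/+. The part of leukocyte RNA in the class II levels was not tested.

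Interferon-inducible GTPases, proteins of the GBP and IRG families that act against intracellular pathogens, were lower for 12 of 13 measured, with a median of -1.38. Igtp, an IRG GTPase, had 18.9 CPM (14.5 to 24.1) in db/db and salt arterial barcodes, against 117 CPM (106 to 128) in db/+ (ratio -2.13), and Iigp1 had 88.4 CPM (78.7 to 99) in db/db and salt arterial barcodes, against 439.7 CPM (419 to 461) in db/+ (-2.19). In the GBP family, Gbp3 had 72.8 CPM (64 to 82.5) in db/db and salt arterial barcodes, against 223 CPM (209 to 239) in db/+ (-1.5), and Gbp2, Gbp4 and Gbp5 had ratios of -1.38, -1.60 and -1.39. Irgm1 had 56.6 CPM in db/db and salt and 148 CPM in db/+. None of these intervals overlapped between the libraries.

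Of the type I interferon response list, 12 of 24 genes were lower, with a median of -0.63. Bst2, which encodes the antiviral membrane protein tetherin, had 272 CPM (254 to 289.6) in db/db and salt arterial barcodes, against 789 CPM (762 to 817) in db/+ (ratio -1.51). Isg15, a ubiquitin-like modifier, had 108 CPM in db/db and salt against 239.8 CPM in db/+, the antiviral Ifit1 47.8 CPM in db/db and salt against 97.5 CPM in db/+, and the transcription factor Irf7 57.2 CPM in db/db and salt against 115 CPM in db/+. Rsad2, the antiviral protein viperin, had a ratio of -0.34 and did not pass the fold. The adhesion molecules Vcam1 and Icam1, which bind leukocytes, had 35.4 CPM in db/db and salt against 108 CPM in db/+ and 52.2 CPM in db/db and salt against 85.5 CPM in db/+, and the chemokines Cxcl9 and Cxcl16 15 CPM in db/db and salt against 60.9 CPM in db/+ and 22.4 CPM in db/db and salt against 42.2 CPM in db/+.

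Promoters of genes of the GTPase, class I and type I groups are shown because interferon-activated transcription factors are known to bind elements with repeated GAAA. The motif searched was GAAA, any 2 bases and GAAA again, read on both strands (TTTC, any 2 bases and TTTC on the opposite strand). No other motif was searched, and the windows ran from 250 bases before to 50 bases after each RefSeq start (GRCm38.p6). Of all 32851 windows, 3.44% held it. In the shares of genes that follow, a gene counted when any of its windows held it. Among genes measured in arterial barcodes it was held by 260 of 6688 found in the table (3.89%), among the 125 lower in db/db and salt by 23 of 92 (25%), and among the 58 higher by 1 of 39 (2.56%). For the lower GTPases it was 9 of 10, for the lower type I genes 5 of 9 and for the lower class I genes 3 of 12. A match is a run of letters in a window, not a measured site. The gene sets were called from these same data, and the lists were chosen as interferon-related, so the shares are a description. What caused the lower levels was not tested. The promoters printed were picked among windows that hold the motif, and they do not stand for their lists. The 250 bases before the start are printed 5′ to 3′ with the motif in capitals.
Igtp (chr11:58199306-58199555, + strand): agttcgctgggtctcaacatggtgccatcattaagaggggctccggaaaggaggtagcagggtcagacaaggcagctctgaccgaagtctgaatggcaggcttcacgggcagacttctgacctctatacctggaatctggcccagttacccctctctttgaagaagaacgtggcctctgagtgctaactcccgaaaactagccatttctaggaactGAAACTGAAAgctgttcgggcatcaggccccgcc
Gbp3 (chr3:142559794-142560043, + strand): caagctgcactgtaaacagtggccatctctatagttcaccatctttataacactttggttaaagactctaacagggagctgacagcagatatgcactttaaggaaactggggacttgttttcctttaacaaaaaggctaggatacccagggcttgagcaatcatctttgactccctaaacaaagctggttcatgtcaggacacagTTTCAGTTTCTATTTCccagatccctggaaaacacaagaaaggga
B2m (chr2:122147437-122147686, + strand): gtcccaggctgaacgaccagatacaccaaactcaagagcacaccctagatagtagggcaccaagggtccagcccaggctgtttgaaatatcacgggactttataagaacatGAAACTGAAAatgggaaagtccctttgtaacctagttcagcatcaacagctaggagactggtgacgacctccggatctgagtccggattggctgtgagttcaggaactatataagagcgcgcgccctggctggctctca
Bst2 (chr8:71537473-71537722, - strand): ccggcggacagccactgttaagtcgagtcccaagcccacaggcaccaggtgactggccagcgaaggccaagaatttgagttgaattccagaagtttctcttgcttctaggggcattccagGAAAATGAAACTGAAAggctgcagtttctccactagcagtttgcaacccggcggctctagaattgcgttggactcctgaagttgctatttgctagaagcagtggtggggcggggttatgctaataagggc

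In Igtp the match began 34 bases before the start and in B2m 139; Gbp3 and Bst2 each held 2 overlapping matches, from 45 and 130 bases before the start.

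The UMIs of the same barcodes were also summed per barcode. The GTPase list had a median of 7.11 UMIs per 10000 (quartiles 3.79 to 10.8) per arterial barcode in db/db and salt, against 14.1 (7.71 to 31.5) in db/+. The class I list had 49.9 (38.4 to 64.6) in db/db and salt, against 99.2 (68.9 to 150.4) in db/+. The quartile ranges of the class I list did not overlap between the libraries, and those of the GTPase list did. They describe the spread over barcodes of 1 library per group, which are not replicates, and test nothing between the groups. On the log2 scale of ratios over genes, members with and without Gja5 gave GTPase medians of -1.17 and -1.49 and members with 3, 4 and 5 markers -1.53, -1.21 and -1.31. For class I they were -1.0 and -1.22, and -1.25, -0.88 and -1.15. These subsets divide the members of the same libraries and are not independent of the values over all members.

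**Figure D4:**
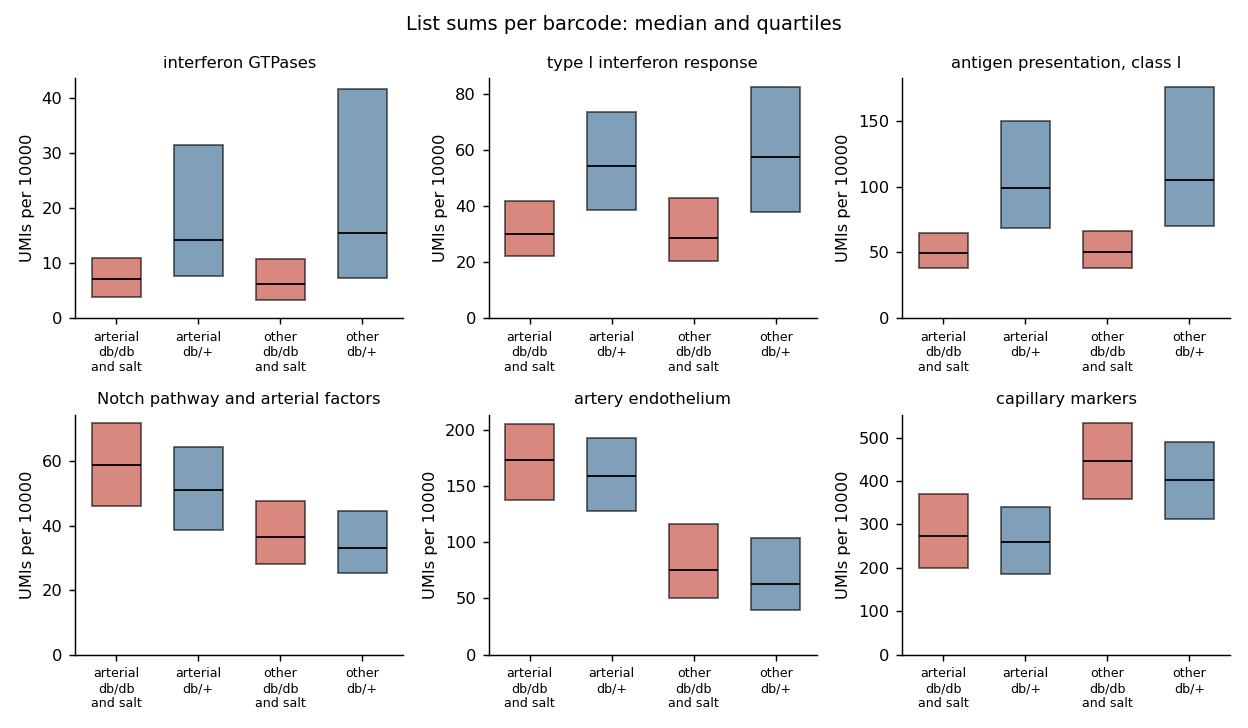
Sum of each list's UMIs per 10000 UMIs of a barcode (y axis) in arterial and other endothelial barcodes, db/db and salt in red and db/+ in blue; the line is the median over barcodes and the box spans the quartiles. In the upper panels (GTPases, type I interferon response and class I antigen presentation) the db/db and salt medians lie below those of db/+, for the GTPases at 7.11 against 14.1 in arterial barcodes.

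Clock genes were lower for 4 of 11 measured, with a median of -0.25. Dbp, a clock-controlled transcription factor, had 18.9 CPM (14.5 to 24.1) in db/db and salt arterial barcodes, against 94.7 CPM (85.3 to 105) in db/+ (ratio -1.86). Its relative Tef and the repressors Nr1d1 and Nr1d2 had ratios of -1.08, -1.42 and -0.65.

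Cyp26b1, an enzyme that degrades retinoic acid (chr6:84571414-84593908, - strand), was the highest of all genes by ratio: it had 128 CPM (116 to 141) in db/db and salt arterial barcodes, against 9.98 CPM (7.1 to 13.6) in db/+ (ratio 2.79). Its UMIs were found in 29.3% and 4.45% of arterial barcodes, 47% and 13% of other endothelial and 6.26% and 1.85% of fibroblast barcodes in db/db and salt and db/+. After thinning the arterial shares were 12.3% and 0.499%, against 1.9% and 0.586% of fibroblast barcodes. The db/+ arterial share, 2 of 401 barcodes, was thus no higher than the fibroblast share, 8 of 1365. How much of either was free RNA was not tested. It was at 145 CPM in members with Gja5 and 114 CPM in members without in db/db and salt, against 5.86 and 13.2 CPM in db/+. With the split made in barcodes thinned to 2000 UMIs, the order in db/db and salt turned: members with Gja5 had 70.5 CPM (35.2 to 126) and members without 116 CPM (88.7 to 149), with intervals that overlap. Other endothelial barcodes had more of it in both libraries, 375 and 41.4 CPM.

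Some genes that the naming rule leaves out also had high ratios, among them Dcn (1.40), a fibroblast gene of the gate with 81.7 CPM in db/db and salt and 24.8 CPM in db/+; the part of fibroblast RNA in the high ratios was not tested. Among the genes that the rule keeps, those next to Cyp26b1 included Ocel1, Gstp1, Apoe, Ccdc85b, Igfbp3, Hk1, Nuak1, Lrrc3b, Trim37 and Cd59a, with ratios from 1.28 (Ocel1) to 0.72 (Cd59a). Igfbp3, an IGF-binding protein of arterial endothelium, had 455 CPM (433 to 478) in db/db and salt arterial barcodes, against 254 CPM (239 to 270.5) in db/+, and it was present in 77.6% and 63% of arterial barcodes. Its relative Igfbp4 had 242 CPM in db/db and salt against 146 CPM in db/+ (ratio 0.69). Gstp1, a glutathione transferase, had 52.5 CPM in db/db and salt against 16.4 CPM in db/+, and Hk1, hexokinase, 74.3 CPM in db/db and salt against 38.9 CPM in db/+. Apoe, apolipoprotein E, had 387 CPM in db/db and salt against 166 CPM in db/+, but fibroblast barcodes had 2946 and 2603 CPM and 5 arterial barcodes held 37.6% of its db/db and salt UMIs. Of the measured cholesterol and lipid synthesis genes, 3 of 16 were higher and none lower, among the higher ones the fatty acid desaturases Scd1 (0.72) and Scd2 (0.72). Among glycolysis genes, 3 of 13 were higher, Hk1, Eno1 (0.60) and the glucose transporter Slc2a1 (0.62), and Pfkfb3, a regulator of glycolysis, was lower (-0.83).

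Many of these differences, more of the lower than of the higher ones, were also present in the rest of the endothelium. Other endothelial barcodes had 50 of 8450 genes (0.592%) higher and 128 (1.51%) lower, and the comparisons rest on separate barcodes of the same libraries. Among genes measured in both, 27 of 56 arterial and of 47 other higher genes were common (48.2% and 57.4%), and so were 88 of 121 and of 111 lower genes (72.7% and 79.3%). The class I median was -1.13 in arterial and -1.24 in other endothelial barcodes, the GTPase median -1.38 and -1.63, the type I median -0.63 and -0.80 and the class II median -2.09 and -2.63. Cyp26b1 had ratios of 2.79 and 2.91, and Dbp of -1.86 and -2.30. The 10 CPM added to each level understates ratios of low genes, and Cyp26b1 had 9.98 CPM in db/+ arterial barcodes. The order of its ratios is therefore not read as a difference between the classes.

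**Figure D5:**
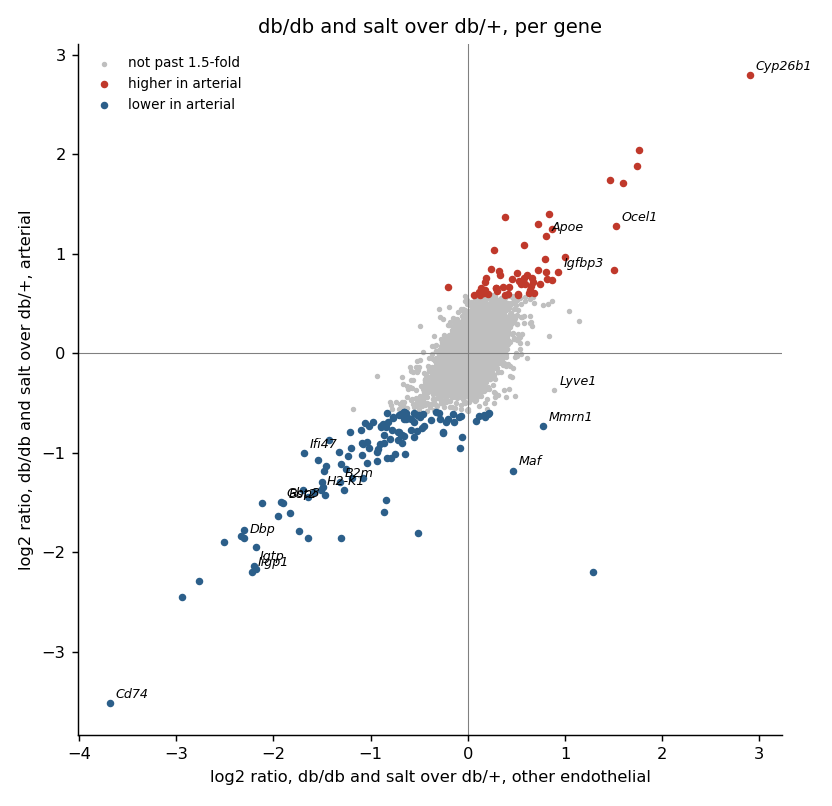
Each point is a gene: the log2 ratio of db/db and salt over db/+ in other endothelial barcodes (x axis) and in arterial barcodes (y axis), for 8454 genes; red and blue points were at least 1.5-fold higher or lower in arterial barcodes. Cyp26b1 at the upper right and Cd74 at the lower left were past the fold in both classes, and Mmrn1, with -0.73 in arterial and 0.78 in other endothelial barcodes, lies at the lower right.

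The arterial ratio exceeded the other endothelial ratio by at least 1.5-fold for 16 of 8450 genes (0.189%) and was as far below it for 38 (0.45%). Among the 16, Cxcl10, a chemokine induced by interferon, had the highest difference (1.98), with 1.18 CPM in db/db and salt and 3.07 CPM in db/+ arterial barcodes, against 2.66 and 48.6 CPM in other endothelial barcodes. By the naming rule, which asks for 50 CPM and for ratio intervals that do not overlap, the leading genes were Tmem176b (0.75), Snx10 (0.71), Ifi47 (0.68) and H2-Aa (0.61), with AU020206 (0.52) and Slco3a1 (0.50) just short of the fold. Tmem176b, a membrane protein gene, had 86.1 CPM (76.5 to 96.6) in db/db and salt arterial barcodes, against 60.4 CPM (52.9 to 68.6) in db/+, and in other endothelial barcodes 72.2 CPM in db/db and salt against 91.1 CPM in db/+, so that its ratios of 0.45 and -0.30 had opposite signs and neither passed the fold. Ifi47, an IRG GTPase, was lower in both classes, by ratios of -1.01 and -1.69. Cxcl9 had -1.5 in arterial and -2.12 in other endothelial barcodes, whose db/+ level was 289 CPM, against 60.9 CPM in db/+ arterial barcodes. No test of these differences was possible.

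By the same rule the lowest differences were those of Ccl21a, Maf, Mmrn1, Lyve1, Slc41a1 and Lrg1, from -3.48 (Ccl21a, the entry with the identifier ENSMUSG00000094686) to -0.82 (Lrg1). Mmrn1, a lymphatic endothelial gene, had 114 CPM in db/db and salt and 196 CPM in db/+ arterial barcodes, from 2.3% and 3.04% of them. Barcodes with lymphatic markers were then left out of both classes, 7 and 12 members and 27 and 17 other endothelial barcodes in db/db and salt and db/+. Mmrn1 and Lyve1 are among the genes that define these barcodes, so their fall is set by the condition itself. Ccl21a, Maf, Slc41a1 and Lrg1 have no part in the condition. In the remaining members Mmrn1 had 0.93 and 0.276 CPM, Lyve1 and Ccl21a had 0 UMIs, which allows up to 3 counts or 0.93 and 0.828 CPM, and with both sets left out none of the 6 genes had a difference past the fold. The ratio of Ccl21a in other endothelial barcodes was -0.01 without them and 1.29 with them. The differences then numbered 20 higher and 30 lower, of which 12 and 19 were shared. Fbln2 and Bmp6 remained among the lower, with -0.66 and -0.73. Without the lymphatic-marker barcodes Fbln2 had 730.4 and 555 CPM in db/db and salt and db/+ arterial barcodes, against 354 and 165 CPM in other endothelial barcodes, and Bmp6 33.2 and 30.1 CPM, against 125 and 65.4 CPM. Igfbp5 had a difference of -0.82 with and 1.44 without the lymphatic-marker barcodes. Without them its arterial levels were 177 CPM in db/db and salt and 17.1 CPM in db/+, a ratio of 2.78. Over all members, 5 barcodes held 81.7% of its arterial UMIs in db/db and salt and 77.7% in db/+. These shares do not describe the members that remained.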

How the data were processed

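The deposited values are UMI counts per gene and barcode in filtered matrices that the authors made with Cell Ranger 6.0.2, per the file headers and the submitters' processing notes, which also name Seurat and the build mm10. No source used here gives the release of the gene annotation. Counts were used as deposited and summed per class and library, with no normalization other than CPM. Scripts ran in Python 3.11.15 with numpy 2.4.6, pandas 2.3.3, scipy 1.17.1, scanpy 1.11.5 and matplotlib 3.10.9, and in R 4.3.3 with edgeR 4.0.16, which only gave TMM factors as an alternative scaling. Intervals are exact 95% Poisson intervals for sums and Clopper-Pearson intervals for shares. Scrublet was run per library with an expected rate of 0.8% per 1000 barcodes. Named genes were the 16 highest and 10 lowest by arterial over other endothelial ratio, the 12 highest and 12 lowest by db/db and salt over db/+ ratio in arterial barcodes and the 6 highest and 6 lowest by their difference, with at least 50 CPM and 30 UMIs, and up to 5 per gene list. Genes whose level was under 10% of that in fibroblast, mural or cardiomyocyte-transcript barcodes were left out. Genes named beyond this rule, list members in the main, and Dcn, Cxcl10, Fbln2, Bmp6 and Igfbp5 in the differences, were chosen after their values were seen. Some genes that these rules name are not reported here. The calling of genes past the fold was checked only on simulated Poisson counts with planted changes larger than the fold. That check does not cover changes near the fold or UMIs held by few barcodes. The members, the gene lists and the rules were chosen with earlier results of these data known. Coordinates are from GENCODE on GRCm38, and promoter sequences are from RefSeq.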

Additional observations from a re-analysis of the deposited data

Results flagged for a closer look

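Ccl21a (ENSMUSG00000094686), a chemokine of lymphatic endothelium, had log2 ratios of db/db and salt over db/+ of opposite direction in the classes: -2.19 in arterial and 1.29 in other endothelial barcodes, a difference of -3.48 on the log2 scale. Mmrn1 did the same, with -0.73 in arterial and 0.78 in other endothelial barcodes, a difference of -1.51. With 1 library per group the difference was not tested. Barcodes with lymphatic markers moved with it: 7 and 12 were arterial in db/db and salt and db/+, against 27 and 17 other endothelial. Without them Ccl21a had 0 CPM in arterial barcodes of both libraries and Mmrn1 had 0.93 CPM in db/db and salt and 0.276 CPM in db/+. Mmrn1 is one of the genes that define these barcodes, so its fall is set by the condition itself, while Ccl21a has no part in it.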

How the results depend on the processing

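Share of arterial barcodes, counts of genes past the fold and medians of the main lists were recomputed under each alternative. The medians of the Notch, artery endothelium, elastic fibre, capillary, class I, GTPase and type I lists kept their direction under every alternative run. Arterial over other endothelial is called the class ratio here, and db/db and salt over db/+ in arterial barcodes the condition ratio. The values given moved beyond their interval or by more than 1.5 times, or reversed. With at least 2 of the 5 markers asked for, the arterial share was 22.1% in db/db and salt and 19.5% in db/+. The log2 ratio of the shares was 0.19. The genes past the fold numbered 55 lower for the class ratio. List medians were Notch 0.34 in db/db and salt, artery endothelium 0.92 in db/db and salt and 1.0 in db/+ and capillary -0.37 in db/db and salt and -0.43 in db/+. With at least 4 markers asked for, the arterial share was 7.77% in db/db and salt and 7.91% in db/+. The genes past the fold numbered 218 lower for the class ratio, 88 higher for the condition ratio, and 30 higher and 65 lower for the difference between classes. List medians were Notch 0.68 in db/db and salt and 0.60 in db/+ and capillary -0.73 in db/db and salt and -0.66 in db/+. Medians that reversed were lymphatic -2.04 in db/db and salt and -1.54 in db/+. Reversed were the class ratio in db/db and salt of Igfbp5 -0.71, Fgl2 -2.25, Mmrn1 -2.43 and Lyve1 -2.04, and the class ratio in db/+ of Igfbp5 -2.43, Fgl2 -1.98, Mmrn1 -2.46 and Lyve1 -1.54, and the condition ratio of Mmrn1 0.19, Maf 0.24 and Lrg1 0.0774. With a mitochondrial limit of 5%, the arterial share was 14.2% in db/+. The genes past the fold numbered 99 higher for the condition ratio and 52 higher and 121 lower for the difference between classes. List medians were Notch 0.55 in db/+ and capillary -0.63 in db/db and salt and -0.62 in db/+. With barcodes thinned to 2000 UMIs before the gate, the arterial share was 7.11% in db/db and salt and 7.68% in db/+. The genes past the fold numbered 434 higher and 312 lower for the class ratio, 849 higher and 640 lower for the condition ratio, and 675 higher and 707 lower for the difference between classes. List medians were Notch 0.70 in db/db and salt and 0.65 in db/+, artery endothelium 1.67 in db/db and salt and 1.45 in db/+ and elastic fibre 0.70 in db/+. List medians were capillary -1.23 in db/db and salt and -1.01 in db/+. Medians that reversed were lymphatic -0.41 in db/db and salt, smooth muscle 0.66 in db/db and salt and erythroid 0.82 in db/+. Reversed were the class ratio in db/db and salt of Igfbp5 -0.68, Fgl2 -0.45, Mmrn1 -1.14, Lyve1 -0.41 and Myh11 0.18, and the class ratio in db/+ of Igfbp5 -0.32, Lyve1 -0.0875 and Myh11 0.85, and the condition ratio of Cxcr4 -0.0516, Apln 1.07 and Cytl1 -0.14. With no Myh11 UMI and an endothelial sum of at least 10, the genes past the fold numbered 27 higher for the difference between classes. List medians were capillary -0.48 in db/db and salt and -0.49 in db/+. With a pseudocount of 1 CPM, the genes past the fold numbered 222 lower for the class ratio, 199 higher and 227 lower for the condition ratio, and 83 higher and 173 lower for the difference between classes. With a pseudocount of 50 CPM, the genes past the fold numbered 105 higher and 47 lower for the class ratio, 16 higher and 56 lower for the condition ratio, and 2 higher and 5 lower for the difference between classes. List medians were artery endothelium 0.93 in db/db and salt and 0.92 in db/+, class I -0.90 and GTPase -0.95. With no filter on low values, the genes past the fold numbered 27 higher for the difference between classes. List medians were elastic fibre 0.0893 in db/+ and capillary -0.52 in db/db and salt. With a minimum of 50 CPM, the genes past the fold numbered 143 higher and 73 lower for the class ratio, 27 higher and 63 lower for the condition ratio, and 3 higher and 10 lower for the difference between classes. List medians were Notch 0.74 in db/db and salt and 0.58 in db/+ and elastic fibre 1.27 in db/db and salt and 1.51 in db/+. With TMM scaling, list medians were capillary -0.66 in db/+. With barcodes weighted equally, the genes past the fold numbered 105 higher for the condition ratio and 33 higher for the difference between classes. List medians were artery endothelium 1.53 in db/+ and capillary -0.81 in db/db and salt and -0.75 in db/+. Medians that reversed were erythroid 0.19 in db/+. Reversed were the condition ratio of Cytl1 -0.11. Without the lymphatic-marker barcodes, list medians were capillary -0.49 in db/+. Reversed were the class ratio in db/db and salt of Igfbp5 -0.26, Fgl2 -0.45 and Lyve1 -0.57, and the class ratio in db/+ of Igfbp5 -1.70, Fgl2 -0.31 and Lyve1 -0.26, and the condition ratio of Slc41a1 0.0639, Mmrn1 0.089, Maf 0.17 and Lrg1 0.0284. Without other endothelial barcodes of 3 or more Myh11 UMIs, list medians were Notch 0.69 in db/db and salt and capillary -0.65 in db/db and salt and -0.63 in db/+. Medians that reversed were smooth muscle 0.95 in db/db and salt. In db/+ the main smooth muscle median of -0.55 was short of the fold, so its change of sign is not counted as reversed. Reversed were the class ratio in db/db and salt of Myh11 0.74, and the class ratio in db/+ of Myh11 0.91. With no limit on Myh11, the arterial share was 15.3% in db/db and salt and 15.7% in db/+. The genes past the fold numbered 492 higher and 223 lower for the class ratio. List medians were Notch 0.70 in db/db and salt and 0.60 in db/+, elastic fibre 0.80 in db/db and salt and 0.81 in db/+ and capillary -0.90 in db/db and salt and -0.84 in db/+. Medians that reversed were smooth muscle 2.96 in db/db and salt. Reversed were the class ratio in db/db and salt of Myh11 4.07, and the class ratio in db/+ of Myh11 4.25. The share of higher among all genes past the fold was 31.7% for the condition ratio, and 57% with thinning, 46.7% with a pseudocount of 1 CPM and 47.3% with equal weights. For the class ratio it was 61.7%, and 74.3% with at least 2 markers. For the difference it was 29.6%, and 48.8% with thinning, 40.3% with no Myh11 UMI, 40% without lymphatic-marker barcodes and 39.3% with TMM scaling. Over single genes and the other lists, 7132 comparisons with an alternative stayed within this wider interval, 1727 moved and 45 reversed. The cause of these movements was not tested, apart from settings that change which barcodes or genes enter by construction. The alternatives on lymphatic markers, on Myh11 and on Gja5 were added with the data known. No paired analysis was possible because each group had 1 library. For the same reason no replicate could be left out. Depth limits the low genes: 3 UMIs equal 0.884 CPM in db/db and salt and 0.768 CPM in db/+ arterial barcodes.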
